A study of Rattus norvegicus with 21 samples.

Results

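The genes described here were the alpha subunits of 2 hypoxia-inducible factors and 4 of the genes these factors are known to switch on, 6 of the 30560 rat gene IDs in the deposited table. They were taken from a fixed list of IDs with names: Hif1a (ENSRNOG00000008292), Epas1 (ENSRNOG00000021318), Vegfa (ENSRNOG00000019598), Slc2a1 (ENSRNOG00000007284), Ldha (ENSRNOG00000013009) and Hk2 (ENSRNOG00000006116). The table itself holds IDs only, so the names rest on that list. All 6 IDs were found, and all 6 passed the filter on low values in each tissue. mRNA libraries were sequenced from brain cortex and hippocampus of wild-type (WT) male SD rats, an outbred laboratory stock. The rats were 4 weeks old at the start and had 2 weeks to acclimate before the experiment. Exposed rats went through hypobaric hypoxia (HH), the thin and oxygen-poor air of altitude, in a chamber that stopped for 1 min at 10000 ft and then stayed for 5 min at 28000 ft. They had 6 such cycles, 3 days apart. Brains were taken 24 h after the last cycle in 1 group and 48 h after it in another, and untreated control rats were kept in normal air. Each tissue gave 4 control libraries, 3 at 24 h and 3 at 48 h. The replicates of a group were separate rats per the labels. Of 12 rats in the study, 1 of the 8 exposed was lost, so the exposed groups held the survivors. With 11 rats left for 21 libraries, both tissues were taken from the same animals. The labels do not say whether libraries with the same replicate number share a rat. The tissue contrasts treat the libraries as separate and so may leave out a pairing. Values with the replicate number as a block are given where they change a call.

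Hypoxia-inducible factors are dimers of an oxygen-sensitive alpha subunit and the stable partner ARNT. With oxygen present, prolyl hydroxylases mark the alpha subunit, the VHL protein binds it and it is degraded. When oxygen is short it accumulates, binds hypoxia-response elements in DNA and raises genes for blood vessel growth, glucose uptake and glycolysis. The alpha subunits are thus controlled largely as proteins, and their mRNA does not report their activity. In brain, Hif1a is expressed in neurons and glia, and Epas1, the gene of HIF-2 alpha, is prominent in endothelium and astrocytes. Vegfa encodes the ligand that drives vessel growth. Slc2a1 encodes GLUT1, the glucose transporter of the blood-brain barrier. Hk2 encodes a hexokinase that traps glucose in the cell, and Ldha encodes the lactate dehydrogenase subunit that turns pyruvate into lactate.

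The core letters of a hypoxia-response element are ACGTG or GCGTG, and both were searched on both strands in the 250 bases before the annotated start of each gene (RefSeq, GRCr8; all 6 members matched by symbol). The windows of the 4 targets are printed 5′ to 3′ on the gene strand because these are the genes the factors are known to act on. They lay at chr9:22452604-22452853 (plus strand, the first of the Vegfa windows), chr5:138002272-138002521 (plus strand, Slc2a1), chr1:106507842-106508091 (plus strand, Ldha) and chr4:116841276-116841525 (minus strand, Hk2). Capitals mark the core on either strand, and CACGTG holds an ACGTG match on each strand that overlap.
Vegfa: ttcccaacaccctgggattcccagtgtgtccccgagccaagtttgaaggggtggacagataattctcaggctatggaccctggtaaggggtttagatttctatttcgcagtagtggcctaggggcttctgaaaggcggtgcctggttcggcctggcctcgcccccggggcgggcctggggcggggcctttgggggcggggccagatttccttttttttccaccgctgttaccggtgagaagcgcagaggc
Slc2a1: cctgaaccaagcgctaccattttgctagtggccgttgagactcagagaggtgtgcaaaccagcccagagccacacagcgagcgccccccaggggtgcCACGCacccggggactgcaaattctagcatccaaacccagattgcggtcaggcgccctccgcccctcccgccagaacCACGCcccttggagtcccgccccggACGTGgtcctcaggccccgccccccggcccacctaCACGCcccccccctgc
Ldha: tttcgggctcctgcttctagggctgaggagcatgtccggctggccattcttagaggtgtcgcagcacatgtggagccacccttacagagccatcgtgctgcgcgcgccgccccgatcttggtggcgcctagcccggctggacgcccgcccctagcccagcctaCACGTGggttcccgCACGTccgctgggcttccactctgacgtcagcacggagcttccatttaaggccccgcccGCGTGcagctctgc
Hk2: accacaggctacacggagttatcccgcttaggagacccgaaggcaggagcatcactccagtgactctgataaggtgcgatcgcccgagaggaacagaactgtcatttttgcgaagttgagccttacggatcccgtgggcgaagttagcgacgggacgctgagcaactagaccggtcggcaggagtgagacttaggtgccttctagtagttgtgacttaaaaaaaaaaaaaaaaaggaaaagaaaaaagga
The Ldha window held the core at 4 positions, 3 of them as ACGTG and 1 as GCGTG. The Slc2a1 window also held it at 4 positions, 1 as ACGTG and 3 as GCGTG. The window of Hif1a itself held ACGTG at 3 positions, and those of Epas1, Vegfa and Hk2 held these letters at 0 positions. Among all 33469 windows of the same length, 16.6% held ACGTG, 25.9% GCGTG and 36.7% either one. At least 3 positions were found in 6.21% of windows and at least 4 in 2.44%. All windows were used for these shares, with no match to the members for base composition. A match is a run of letters and not a measured binding site, and a known Vegfa element lies farther upstream than this window.

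**Figure D1:**
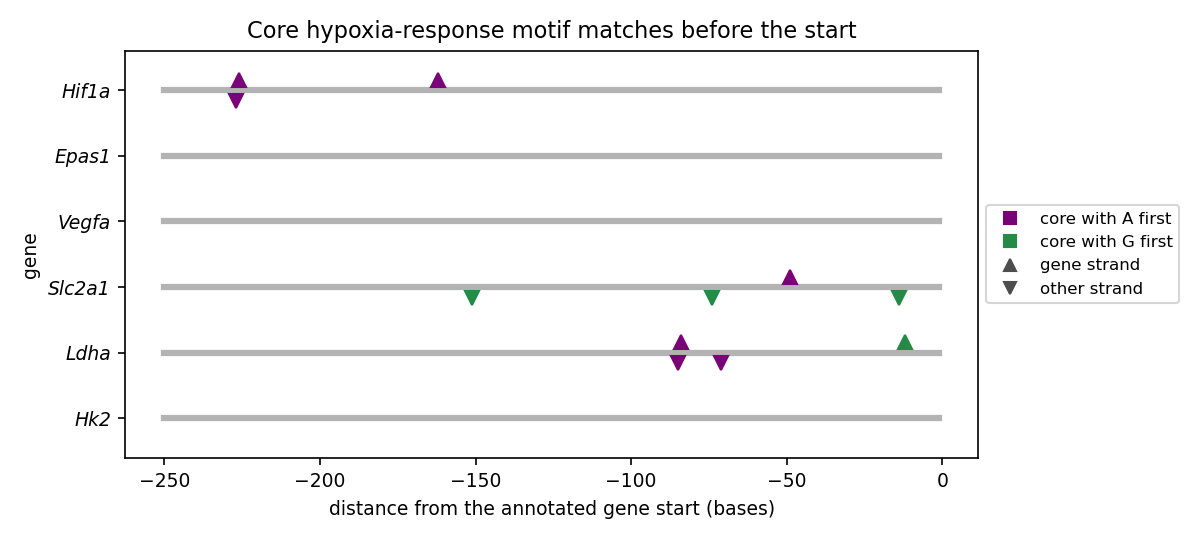
Positions of the core letters in the 250 bases before the start of each member, 1 line per gene, with the horizontal axis in bases from the annotated start. Upward triangles are matches on the gene strand and downward triangles on the other strand, purple for ACGTG and green for GCGTG; Slc2a1 and Ldha each carry 4 and Vegfa, Hk2 and Epas1 carry 0.

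Values are normalized read counts, that is, reads in a gene divided by 1 size factor for its library. They are not divided by gene length, so a gene is compared with itself across groups and never with another gene. Reads in genes ran from 11214566 to 19304803 per library, except in hippocampus control 1, which had 4654096. To place a library between the tissues, the median position between the cortex level (0) and the hippocampus level (1) was taken over 307 to 373 tissue-marking IDs, members left out. Most cortex libraries lay between -0.0892 and 0.0922, with cortex 24 h replicate 3 at 0.318 and cortex control 3 at 0.515. Most hippocampus libraries lay between 0.908 and 1.08, with hippocampus control 2 at 0.427 and hippocampus 24 h replicate 2 at 0.563. Where leaving out hippocampus control 1, or all 5 of these libraries, turned a direction or changed a call, that value is given beside the result. Position between the tissues set apart all of the 5 but hippocampus control 1, so leaving them out can widen tissue differences in general. In bulk tissue, fewer cells of a type and less RNA per cell cannot be told apart.

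**Figure D2:**
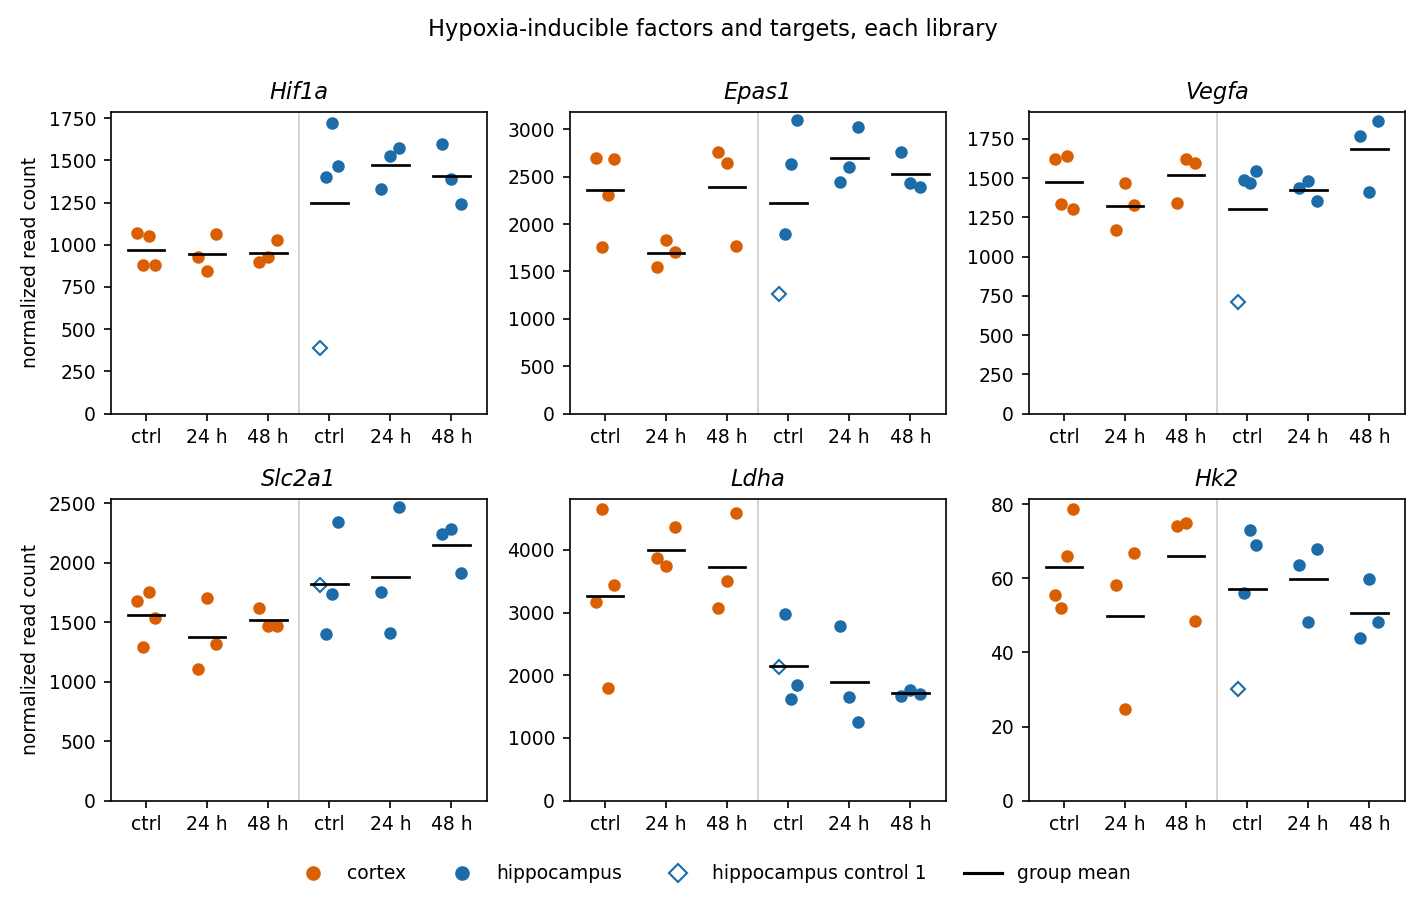
Normalized read count of each member (vertical axis, starting at 0) in the 20 libraries, grouped by tissue and exposure (ctrl, control). Points are single rats' libraries, bars are group means, and the open diamond is hippocampus control 1, which lies at 388 for Hif1a and 712 for Vegfa.

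Hif1a was level across the cortex groups and higher in nearly all hippocampus libraries. In cortex its normalized counts were 1069.5, 879, 1053 and 878 in controls, 929, 846 and 1067 at 24 h, and 899, 929.9 and 1029 at 48 h. In hippocampus they were 388, 1403, 1722 and 1467 in controls, 1328, 1525 and 1570.3 at 24 h, and 1598, 1390.3 and 1241 at 48 h. With hippocampus control 1 set aside, every hippocampus library was above every cortex library. The share of all genes separated in this way without that library was not computed. The cortex groups overlapped fully, with means of 970 ± 106 in controls (SD, n = 4), 947 ± 111 at 24 h and 953 ± 68.1 at 48 h (n = 3 each). The log2 change was -0.03 at 24 h (limma, 95% interval -0.33 to 0.26) and -0.02 at 48 h (-0.32 to 0.27). These were 0.09 and 0.02 without the 5 libraries. In cortex the within-group SD of Hif1a was 0.10 to 0.17 on the log2 scale, against a median over genes tested of 0.20 to 0.31. The genes tested were not matched to Hif1a for level, and Vegfa was also below that median in each cortex group.

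In hippocampus the Hif1a comparison turned on 1 library. The log2 change was 0.44 at 24 h (-0.56 to 1.44) and 0.37 at 48 h (-0.63 to 1.37), neither past the test. Hippocampus control 1 held 90 Hif1a reads. Without it the control mean was 1531 ± 169 (n = 3), and the changes became -0.05 (-0.40 to 0.29) and -0.12 (-0.47 to 0.22). The same library was below the other 9 hippocampus libraries for Hif1a, Epas1, Vegfa and Hk2, but not for Slc2a1 or Ldha. Over 12063 genes with a median of at least 50, it was below all other hippocampus libraries in 37.8% and above all of them in 32.7%.

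Epas1 had its lowest cortex levels at 24 h, but the difference did not pass the test across all genes. Cortex counts were 2699.8, 1761, 2305 and 2683 in controls, 1552, 1828 and 1705 at 24 h, and 2759, 2639.7 and 1769 at 48 h. At 24 h all 3 libraries were low, yet control 2 and 48 h replicate 3 were as low, so the groups overlapped. The log2 change at 24 h was -0.46 (SE 0.20, -0.91 to -0.02; unadjusted p = 0.0435, adjusted p = 0.612, limma). From 24 h to 48 h it was 0.47 (SE 0.21; adjusted p = 0.444). That last contrast passed only where limma estimated a weight for each library (0.66, adjusted p = 0.027). Hippocampus counts of Epas1 were 1260.1, 1893, 2635 and 3095 in controls, 2443, 2607 and 3029 at 24 h, and 2763, 2429.5 and 2387 at 48 h. There the changes were 0.35 (-0.30 to 1.01) at 24 h and 0.26 (-0.39 to 0.92) at 48 h, and the controls spanned both exposed groups. Without hippocampus control 1 these changes were 0.11 and 0.02, and without the 5 libraries that stand apart -0.02 and -0.18. The difference between the tissues in the Epas1 response at 24 h was 0.81 (0.05 to 1.57, unadjusted p = 0.0371, adjusted p = 0.856, limma). Without hippocampus control 1 it was 0.57 (adjusted p = 0.964), and without the 5 libraries 0.50 (adjusted p = 0.981).

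Vegfa, the vessel growth ligand, overlapped its controls in every exposed group. Its cortex counts were 1624, 1335, 1642 and 1306 in controls, 1168, 1469 and 1326 at 24 h, and 1341, 1618 and 1598 at 48 h. The log2 change was -0.16 (-0.47 to 0.16) at 24 h and 0.04 (-0.27 to 0.36) at 48 h. Hippocampus counts were 712, 1490.4, 1472 and 1543 in controls, 1438, 1479.6 and 1351 at 24 h, and 1768, 1414 and 1866 at 48 h. The 48 h libraries included the highest Vegfa values of that tissue, and the remaining one, 1414, was below all controls but hippocampus control 1. The change at 48 h was 0.42 (-0.21 to 1.05; adjusted p = 0.928, limma), and 0.15 (-0.16 to 0.47) without hippocampus control 1. At 24 h it was 0.19 (-0.44 to 0.82), and -0.08 without that library.

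Slc2a1 did not differ after exposure beyond the spread of the rats. Its cortex counts were 1675, 1290.1, 1751 and 1535 in controls, 1110.3, 1706 and 1313 at 24 h, and 1618, 1466 and 1467 at 48 h. Its hippocampus counts were 1812.5, 1398, 1736 and 2346 in controls, 1755, 1409 and 2472 at 24 h, and 2245, 2282 and 1912 at 48 h. The groups overlapped in both tissues, and the hippocampus libraries were mostly the higher ones. In cortex the log2 change was -0.20 (-0.57 to 0.17) at 24 h and -0.04 (-0.40 to 0.33) at 48 h. In hippocampus it was 0.03 (-0.53 to 0.58) and 0.26 (-0.30 to 0.81). Without the 5 libraries the 48 h value in cortex was 0.02, and the hippocampus values were -0.11 and 0.08.

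Hk2 was detected at low depth, with 28 to 111 reads per cortex library and 40 to 79 per hippocampus library apart from hippocampus control 1, which had 7. Its normalized counts spanned 24.7 to 78.8 in cortex and 30.2 to 73.1 in hippocampus, and every exposed group overlapped its controls. The 7 reads gave a normalized count of 30.2, with an exact Poisson 95% interval of 12.1 to 62.2 that covers counting error only. Cortex means were 63.1 ± 12.1 in controls (SD, n = 4), 49.9 ± 22.2 at 24 h and 65.9 ± 15 at 48 h (n = 3 each). The lowest Hk2 value, 24.7, was in cortex 24 h replicate 3, and the log2 change at 24 h was -0.43 (-1.20 to 0.34). Without that library it was 0.00 (-0.59 to 0.59). In hippocampus the change was 0.13 (-0.69 to 0.95) at 24 h and -0.11 (-0.93 to 0.71) at 48 h. Without hippocampus control 1 these were -0.15 (-0.68 to 0.39) and -0.38 (-0.91 to 0.15).

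Ldha, the lactate-producing enzyme, showed no change after exposure past the test but was lower in hippocampus than in cortex. Cortex counts were 3165, 4648, 1796 and 3444.5 in controls, 3869, 3743 and 4365 at 24 h, and 3073, 3501 and 4592 at 48 h. Hippocampus counts were 2132, 2978, 1629 and 1839 in controls, 2785, 1649 and 1249.9 at 24 h, and 1677, 1757 and 1706 at 48 h. Among the 10 cortex libraries, only control 3 fell inside the range of the hippocampus libraries. The log2 change in cortex was 0.37 (-0.26 to 1.00) at 24 h and 0.25 (-0.38 to 0.88) at 48 h. Without that control they were 0.11 (-0.32 to 0.53) and -0.01 (-0.43 to 0.41). In hippocampus it was -0.22 (-0.89 to 0.44) and -0.29 (-0.95 to 0.38), and -0.27 and -0.01 without the 5 libraries. The assembly names 30 Ldha pseudogenes, and the counting of reads that map to several places was not given in the sources used here, so Ldha values are uncertain to that extent. Hif1a is overlapped by 1 annotated long noncoding RNA, and the strand setting of the counting is likewise not given.

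Across the exposure comparisons, 0 of 6 members passed an adjusted p of 0.05 in each of 8 contrasts, and the groups overlapped for all 6 members in each. In cortex, 0% of 14783 genes passed in the 4 contrasts run (each time against control, 1 time against the other, and the pooled times against control), and in hippocampus 0% of 15028. The members' count of 0 therefore equals the background of these fits. In cortex the share of all genes free of overlap was 9.19% for the 24 h contrast, 9.11% for 48 h, 22.7% for 48 h against 24 h and 0.832% for the pooled times. In hippocampus these shares were 4.07%, 3.42%, 3.97% and 0.799%. At an unadjusted p under 0.05, 1 member passed in cortex at 24 h (Epas1), against 7.96% of all genes, and 0 members passed in the other 7. edgeR on the recovered reads called 0 members and 0% of genes in all 8. DESeq2 also called 0 members in all 8, with 0.379% of genes passing in cortex at 24 h, 1.18% in cortex between 24 h and 48 h, and at most 0.0599% in the other 6. The members' median log2 change in cortex at 24 h was -0.18, with 5 of 6 lower, against -0.02 over all genes tested; at 48 h it was 0.03, against 0.01. Without the 5 libraries the 24 h median was -0.08, with 3 of 6 lower. In hippocampus the medians were 0.16 at 24 h and 0.26 at 48 h, against 0.03 and 0.02. Without hippocampus control 1 they were -0.07 and -0.05, against -0.01 and 0.01, and without the 5 libraries -0.10 and -0.10. The 2 times share their controls, and these medians have no test. Over the 8 contrasts the 95% intervals, which are not adjusted for the number of genes, reached 0.25 to 0.82 to either side of the estimate in cortex and 0.47 to 1.07 in hippocampus. Passing the adjusted threshold took a change larger than these: Epas1 in cortex at 24 h lay just beyond its interval's reach and did not pass.

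**Figure D3:**
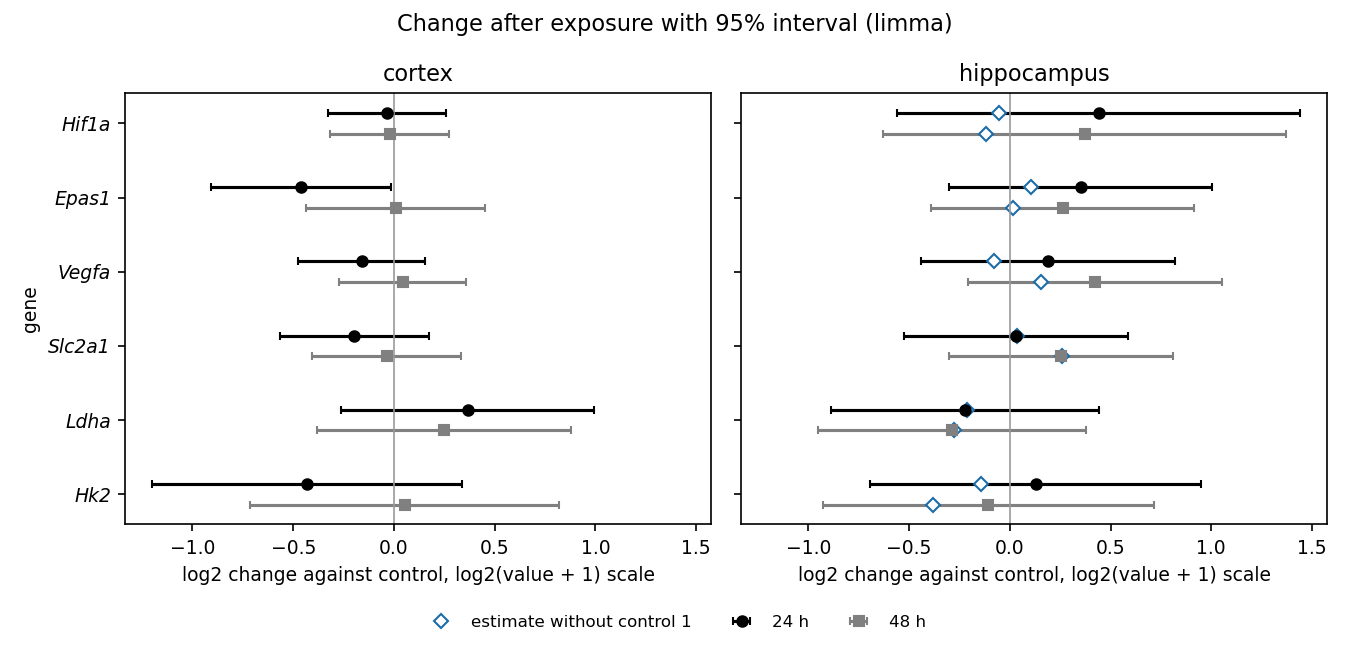
Log2 change of each member against control at 24 h (black circles) and 48 h (grey squares), cortex on the left and hippocampus on the right, with 95% intervals from limma on the log2(value + 1) scale. Open diamonds are the hippocampus estimates without control 1; of the 24 intervals only that of Epas1 in cortex at 24 h, -0.91 to -0.02, leaves out 0.

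Between the tissues, limma with all libraries called Ldha and Slc2a1 only in the averaged contrast described below, and Hif1a in no contrast. Within a single exposure group, 0 of 6 members passed in controls (2.9% of 15017 genes did), 0 of 6 at 24 h (1.8%) and 0 of 6 at 48 h (5.29%). In controls the tissues overlapped for all 6 members, where 8.64% of genes did not overlap. At 24 h they did not overlap for 3 of 6 (29.4% of genes): Hif1a and Epas1 were higher in every hippocampus library and Ldha lower. At 48 h they did not overlap for 3 of 6 (42% of genes): Hif1a and Slc2a1 higher and Ldha lower. With the tissue difference averaged over the 3 exposure groups, a contrast added after the values were seen, 2 of 6 members passed, Ldha and Slc2a1, against 21.8% of all genes. Over all 10 libraries of each tissue, 0 of 6 members were free of overlap, against 1.88% of genes. The exposure response itself did not differ between the tissues past the test for any member, with 0 of 6 passing at 24 h and 48 h and 0% of all genes.

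Ldha was lower in hippocampus by -0.56 on the log2 scale in controls (adjusted p = 0.276), -1.15 at 24 h (SE 0.32, adjusted p = 0.0707) and -1.10 at 48 h (adjusted p = 0.0532, limma throughout). The averaged difference was -0.94 (SE 0.18, -1.31 to -0.57, adjusted p = 0.00112). The plain mean count over all libraries of a tissue, not weighted equally by exposure group, was 1940.2 ± 543 in hippocampus and 3619 ± 851 in cortex (SD across the groups pooled, n = 10 each). The averaged difference passed in 20 of 20 fits that each left out 1 library, with adjusted p between 0.000175 and 0.00358. The single-time differences sat at the threshold: the 24 h difference passed when cortex control 3, hippocampus control 1, hippocampus control 2 or hippocampus 24 h replicate 2 was left out (adjusted p = 0.0341, 0.0451, 0.0495 and 0.0353). The 48 h difference passed when any 1 of those 4 was left out (0.0216, 0.0356, 0.0384 and 0.0366), and also without cortex control 2 (0.0467) or hippocampus 24 h replicate 4 (0.04). DESeq2 called it at 24 h and at 48 h with all libraries (adjusted p = 0.0254 and 0.0117), and edgeR did not (0.0989 and 0.0585). With the replicate number as a block the 48 h difference passed (limma adjusted p = 0.048, with 3.74% of all genes) and the 24 h difference did not (0.0868, with 0%). The libraries that lay between the tissues did not all have Ldha counts between those of the tissues. Hippocampus control 2 and 24 h replicate 2, at positions 0.427 and 0.563, had the 2 highest hippocampus Ldha counts, 2978 and 2785, and cortex control 3, at 0.515, had the lowest cortex count, 1796. Cortex 24 h replicate 3, at 0.318, had 3743, inside the range of the other cortex libraries. Without all 5 libraries that stand apart, the averaged difference was larger, -1.24 (-1.49 to -0.99, adjusted p = 4.86e-06), and the difference in controls alone was -1.10 (adjusted p = 0.00353). The 24 h and 48 h differences passed there too, at -1.52 and -1.10 (adjusted p = 0.001 and 0.000941, limma). In that setting 17.1% of all genes passed in controls, 15.7% at 24 h, 27.9% at 48 h and 45.8% in the averaged contrast.

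**Figure D4:**
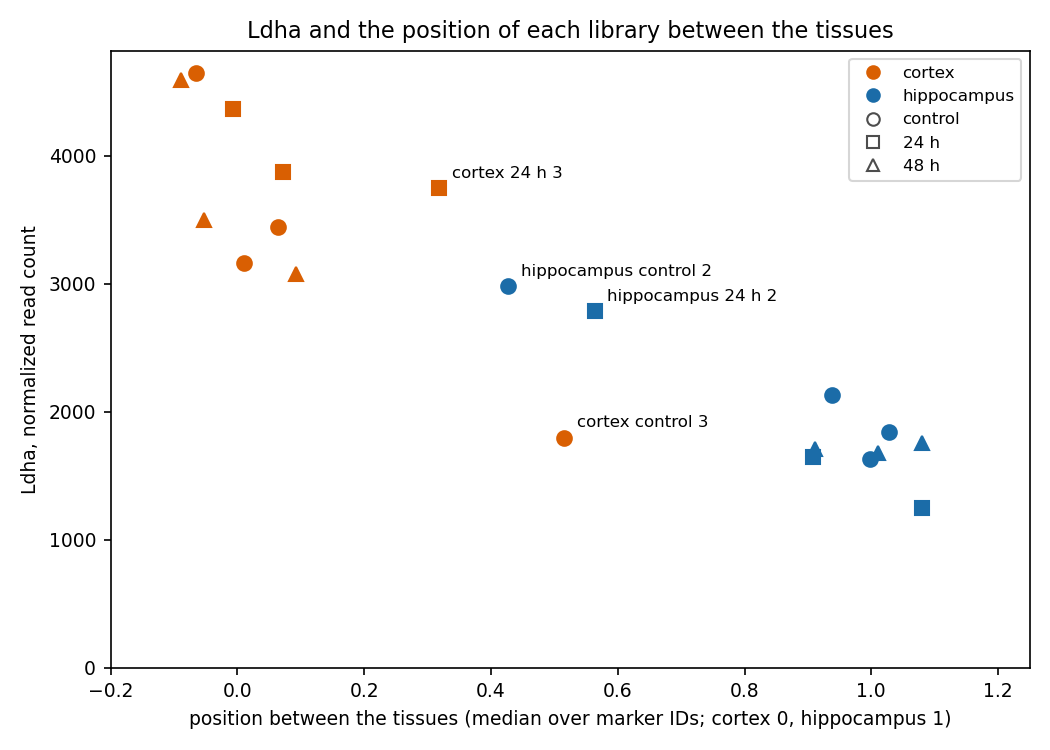
Ldha (vertical axis, normalized read count from 0) against the position of each library between the tissues (horizontal axis; cortex 0, hippocampus 1), 1 point per library. Cortex libraries are orange and hippocampus libraries blue, with the shape giving the exposure group; the labelled libraries at 0.318 to 0.563 hold 1796 to 3743, between or inside the ranges of the ends.

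Slc2a1 was higher in hippocampus, by 0.21 in controls, 0.43 at 24 h and 0.50 at 48 h, and by 0.38 in the averaged contrast (0.12 to 0.64, adjusted p = 0.0362, limma). This call was close to the threshold: it was lost in 10 of 20 fits that left out 1 library, with adjusted p up to 0.0875. The libraries in question were cortex control 2 and 4, cortex 24 h replicates 2 and 4, cortex 48 h replicates 2 and 3, hippocampus control 4, hippocampus 24 h replicate 4, and hippocampus 48 h replicates 1 and 2. With the replicate number as a block it was lost too (adjusted p = 0.0807). Without the 5 libraries that stand apart the difference was 0.52 (limma adjusted p = 0.00484), a setting in which 45.8% of all genes passed.

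Hif1a was higher in hippocampus by 0.17 in controls, 0.64 at 24 h and 0.56 at 48 h, and by 0.46 in the averaged contrast (0.02 to 0.89, adjusted p = 0.124, limma), with no call. edgeR and DESeq2 on the recovered reads called the averaged difference (adjusted p = 0.0454 and 0.0199), with 24.2% and 29.8% of all genes passing. Hippocampus control 1 decided this too. Without it the limma difference was 0.66 in controls (adjusted p = 0.0156), 0.64 at 24 h (0.0171), 0.56 at 48 h (0.019) and 0.62 in the averaged contrast (0.45 to 0.79, adjusted p = 5.08e-05). In that setting 3.7%, 5.98%, 13.9% and 32.7% of all genes passed in these contrasts. The averaged difference was 0.65 without the 5 libraries (limma adjusted p = 6.03e-05), a setting in which 45.8% of all genes passed. Epas1 was higher in hippocampus at 24 h by 0.66 (0.09 to 1.24, adjusted p = 0.237) and by 0.21 in the averaged contrast (adjusted p = 0.362). Without the 5 libraries both passed in limma, at 0.79 (adjusted p = 0.0429) and 0.39 (adjusted p = 0.0223). Both also passed with library weights in limma (0.67, adjusted p = 0.00982, and 0.29, adjusted p = 0.0222). Of all genes, 15.7% and 45.8% passed without the 5 libraries, and 23.2% and 51.6% with library weights. In the main fit these shares were 1.8% and 21.8%. Vegfa and Hk2 had averaged differences near 0, at 0.01 (-0.27 to 0.29) and -0.06 (-0.51 to 0.38). The Hk2 value was 0.03 without hippocampus control 1. Differences inside these intervals are not excluded.

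**Figure D5:**
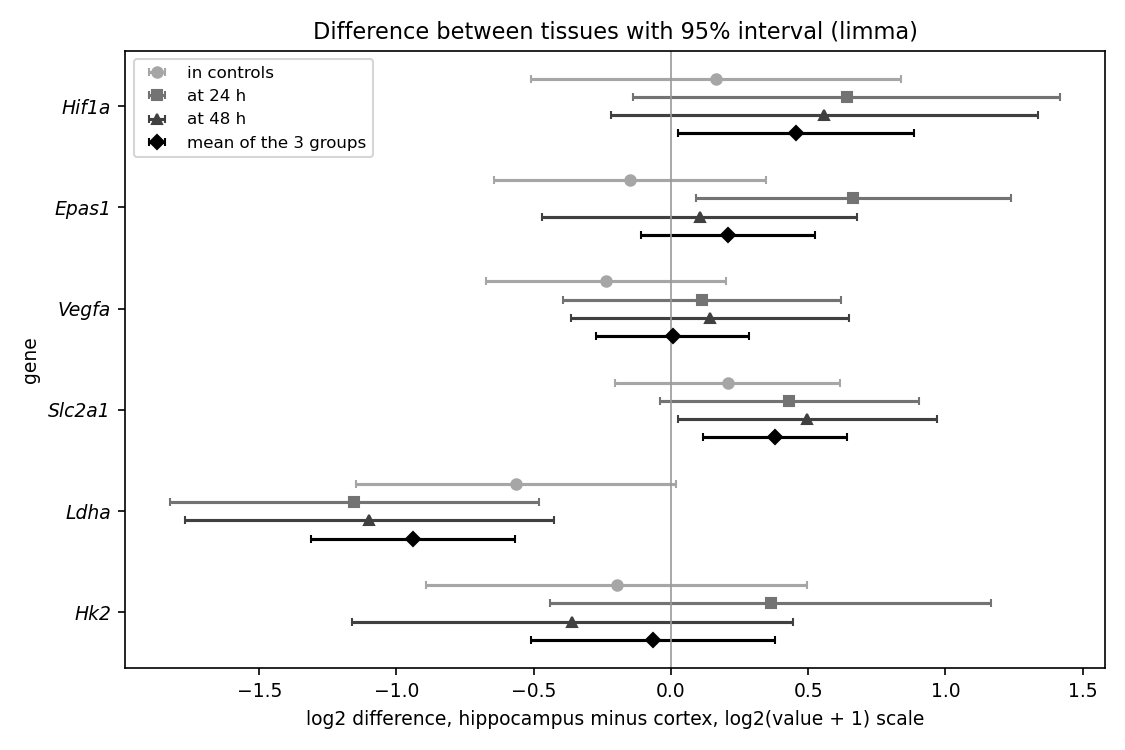
Log2 difference between hippocampus and cortex for each member in controls (light circles), at 24 h (squares), at 48 h (triangles) and as the mean of the 3 groups (black diamonds), with 95% intervals from limma. Ldha lies to the left of 0 at each, from -0.56 to -1.15, and Slc2a1 and Hif1a lie to the right.

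The order of the 6 groups by mean level differed from gene to gene, and neighbours in it could not be separated. In none of the 30 pairs of neighbouring groups, 5 for each member, were the ranges free of overlap. Hif1a had the 3 hippocampus groups above the 3 cortex groups, and Ldha the 3 cortex groups above the 3 hippocampus groups. Slc2a1 had the same order of tissues as Hif1a. For Epas1 the lowest mean was cortex at 24 h, 1695 ± 138 (SD, n = 3), and the highest hippocampus at 24 h, 2693 ± 302.

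How members varied together between rats of the same group depended on 1 library for several pairs. With group means removed, Hif1a correlated with Vegfa at r = 0.85 and with Epas1 at r = 0.68 over 20 libraries, on the log2 scale. These dropped to 0.21 and 0.18 over the 19 libraries without hippocampus control 1. Epas1 and Slc2a1 gave r = 0.47 with all 20 and 0.66 with 19, and Slc2a1 and Ldha gave -0.54 in both. Vegfa and Hk2 went from 0.28 to -0.50. Of the 15 pairs of members, 9 were positive with all libraries and 8 without hippocampus control 1. The points share their library's depth, RNA quality and tissue makeup, and the values are descriptive. Among the 12374 genes whose mean reached 50, the ID most like Vegfa over all libraries was ENSRNOG00000021718 (r = 0.96). The ID most like Epas1 was ENSRNOG00000012495 (r = 0.91). Dropping only the point of hippocampus control 1 gave 0.89 and 0.87. Unlike in the member pairs, the group means removed there still included that library. These values therefore cannot show whether the likeness holds without it.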

How the data were processed

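RNA was extracted with TRIzol and made into stranded mRNA libraries, per the labels' protocols. The submitters' processing notes name fastp 0.20.0, HISAT2 2.1.0 and featureCounts 2.0.1. For the genome build, annotation and strand setting, details were not given in the sources used here. In their table the authors deposited a signal per gene and library, which equals read counts divided by a size factor: 100% of values came out as whole reads within 0.001. This scaling removes a shift shared by most genes. A library titled as hippocampus but labelled cortex entered no comparison.

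Tests were run on log2(value + 1) in limma 3.58.1 under R 4.3.3 (eBayes with trend, two-sided, Benjamini-Hochberg over all genes, threshold 0.05), keeping genes with a mean of at least 10. Each tissue had its own fit of 10 libraries, and tissue contrasts used all 20. Fold changes on this scale understate those of low genes. The code was tested on simulated data. Alternatives were a pseudocount of 0.1, no filter, TMM and quantile scaling, edgeR 4.0.16 and DESeq2 1.42.0 on recovered reads, library weights, a block, other library sets and each library left out. Tissue-marking IDs for the position differed at least 4-fold between tissue medians, with the higher of the medians at 100 or more and the library itself left out. The members, lists and tests were chosen with earlier results of these data known; all 6 members are named whatever their values, plus the 1 most alike ID for Vegfa and Epas1. Neither table used here pairs Ensembl IDs with symbols (0 of 47357 reference genes carry one), so the lists of other pathway genes and of cell type and tissue markers, and protein sequences, were not analysed here.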

Additional observations from a re-analysis of the deposited data

Results flagged for a closer look

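Vegfa in hippocampus control 1, at a normalized count of 712, stood far below the other 3 hippocampus controls, at 1472 to 1543. The gap to its nearest neighbour was 0.914 of the range of the group, in 1 of 12 such tests of the members in the control groups, and chance gives about 1 in 20. The same library has the fewest reads. Vegfa in the library with conflicting tissue labels, which entered no comparison, was 1663, above the highest control value of either tissue, 1642.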

How the results depend on the processing

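In the 8 exposure comparisons the number of members called was 0 in 163 of 164 recomputed values, and 1 with library weights for cortex at 48 h against 24 h (Epas1, with 9.03% of all genes). In the tissue comparisons the number called, from 0, 0 and 0 in controls, at 24 h and at 48 h and 2 in the averaged contrast, became 2, 4, 3 and 4 with library weights, where 25.2%, 23.2%, 41.1% and 51.6% of all genes passed. Without the 5 libraries that stand apart it became 2, 3, 2 and 4 (17.1%, 15.7%, 27.9% and 45.8% of genes). It became 1, 3, 2 and 4 (7.83%, 8.94%, 16.5% and 37.1%) without hippocampus controls 1 and 2, an alternative added after the values were seen, as was the averaged contrast. DESeq2 called 1 member at 24 h and 1 at 48 h (Ldha, adjusted p = 0.0254 and 0.0117; 6.91% and 12.9% of genes), and edgeR 0 at each. In the averaged contrast edgeR and DESeq2 also called Hif1a (adjusted p = 0.0454 and 0.0199), with 24.2% and 29.8% of all genes passing. With 1 library left out the counts ranged from 0 to 1 in controls, 0 to 2 at 24 h, 0 to 2 at 48 h and 1 to 3 in the averaged contrast. The highest count of each came without hippocampus control 1, where 3.7%, 5.98%, 13.9% and 32.7% of all genes passed. With the replicate number as a block, Ldha passed at 48 h (1 member, limma adjusted p = 0.048, with 3.74% of all genes). In that setting Slc2a1 no longer passed in the averaged contrast (limma adjusted p = 0.0807), where 1 member and 17.2% of all genes passed. Same-numbered libraries of the tissues had correlations of deviations from -0.29 to 0.136. With 3 or 4 libraries per group, some of them apart in depth or position, these values cannot decide whether the number marks a rat. The tissues share animals, so the fits without a block may leave out a pairing. The cause of the differences between settings was not tested. Of 2064 recomputed log2 values, 154 changed sign, all of them uncalled before and after. Ldha kept its sign in 120 of 120 recomputed tissue differences. Depth limits Hk2 most, with 7 to 111 reads per library.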

Other observations

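The library titled as hippocampus at 24 h but labelled cortex had normalized counts of 1378 for Hif1a, 2534 for Epas1, 1663 for Vegfa, 1966 for Slc2a1, 1627 for Ldha and 70.3 for Hk2. Its position between the tissues was 0.898, where cortex is 0 and hippocampus 1.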
